A study of Mus musculus with 6 samples.

Results

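The genes that make, bind and break down hyaluronan were examined in cultured mouse BMSCs, the plastic-adherent stromal cells of bone marrow from which bone-forming osteoblasts can be derived, during osteogenic differentiation. They were 9 genes chosen by name, Has1, Has2, Has3, Cd44, Vcan, Cemip, Hyal1, Hyal2 and Tnfaip6, of the 54532 genes in the count table, and all 9 were found there by symbol and gene identifier. Primary BMSCs from the bone of wild type mice were kept for 7 days in osteogenic medium, which was MEM α with 10% FBS, 50 µg/mL ascorbic acid, 10 mM β-glycerophosphate and dexamethasone under 5% CO2. The sample labels give dexamethasone as 100 nM and the study's methods give a lower concentration, so the dose shared by both groups is uncertain. A control group of 3 libraries had vehicle only and a Ni group of 3 libraries had 0.1 µM nickel ions, and the libraries were prepared from separate biological replicates. The libraries held 16101033 to 18642504 counted reads, which limits the precision for a gene of a few reads.

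Hyaluronan is a long unbranched sugar polymer of the extracellular matrix, built from alternating glucuronic acid and N-acetylglucosamine. The synthases HAS1, HAS2 and HAS3 sit in the plasma membrane, draw on UDP-sugars in the cytosol and push the growing chain out of the cell. CD44 is the main cell surface receptor, versican (Vcan) is a large proteoglycan that binds the polymer through its link domain, and TSG-6 (Tnfaip6) transfers heavy chains of inter-alpha-inhibitor onto it. The polymer is cut by the hyaluronidases HYAL1, in lysosomes, and HYAL2, at the cell surface, while CEMIP is needed for another route of breakdown in fibroblasts. In marrow and bone the polymer is part of the matrix around stromal and blood-forming cells, and CD44 is carried by stromal cells and by leukocytes, macrophages and osteoclasts among them.

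No hyaluronan gene passed an adjusted p of 0.05 between the Ni and control libraries, and none of the 14624 genes tested did either (0%) by the quasi-likelihood F test of edgeR, Benjamini-Hochberg adjusted. Has1 had too few reads to be tested, which left 8 of the 9. Of these 8, 7 had a higher mean in the Ni libraries and Has3 a lower one, against 48.1% of all tested genes with a positive log2 fold change. The 8 had a median log2 fold change of 0.30, where that of all tested genes was -0.01. With 1 library left out this median ranged from 0.17, without control replicate 1, to 0.54, without control replicate 3. The largest differences were those of Cemip, at 1.50-fold, and Hyal1, at 1.44-fold. These were also the only 2 of the 8 with an unadjusted p under 0.05 in that fit, where 7.59% of all tested genes passed with a higher and 5.83% with a lower value. For none of the 8 did the Ni libraries lie entirely above or entirely below the controls on the CPM scale, which held for 7.97% and 6.71% of all tested genes (CPM are counts scaled to library size with TMM factors). By the other tools run, DESeq2 called 257 genes at that level, no hyaluronan gene among them, and limma on log2 FPKM called 0, while 1963 genes had an unadjusted p below 0.05 in edgeR.

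Control replicate 3 stood apart from the other controls for most of these genes. The median over the 8 genes of log2 CPM, centred per gene, was -0.43 and -0.42 in control replicates 1 and 2 and 0.25 in control replicate 3, which lay within the 0.19 to 0.26 of the Ni libraries. Without control replicate 3, 4 of the 8 genes passed an adjusted p of 0.05, all higher in the Ni libraries, where 8.69% of 15044 genes tested in that setting passed with a higher value. The 4 were Has2, Vcan, Cemip and Hyal1. Has2, Vcan and Hyal1 passed in no other setting tried, and Cemip passed in 1 other, with no filter on low counts. Each fold change of a tested gene among the 9 is therefore given with and without it.

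The groups also differed in cell type markers. The summed CPM of 8 osteoblast markers, such as Ibsp and Alpl, was 1052 to 2930 in the controls and 3232 to 6477 in the Ni libraries. All 8 markers were higher in the Ni libraries with an unadjusted p under 0.05 and groups that did not overlap. Of all tested genes, 7.59% were higher and 5.83% lower at that unadjusted level. The Ni libraries lay entirely above the controls for 7.97% of all tested genes and entirely below for 6.71%. The sum of 12 stromal markers was 10733 to 16692 in the controls and 20979 to 25913 in the Ni libraries, with 6 markers higher and 1 lower (unadjusted p below 0.05). For 2 of these 12 the Ni libraries lay entirely above the controls and for 1 entirely below. Both sums were highest among the controls in replicate 3. Most of the stromal sum came from Col1a1 and Col1a2, at 4506 to 8536 and 3426 to 5690 CPM in the controls. In the Ni libraries these were at 11590 to 14381 and 7121 to 9190 CPM. Both genes were highest among the controls in replicate 3. Cxcl12, next in CPM on that list, was lower in every Ni library, at 1355 to 1609 against 1767 to 2304 CPM. Of the 12 stromal log2 fold changes, 9 were positive and 3 negative. In cells labelled as mesenchymal stem cells, 12 macrophage markers, such as Csf1r and Adgre1, summed to 2.52% to 3.03% of all reads. Their sum was 25160, 25699 and 30257 CPM in the controls and 25343 to 26282 in the Ni libraries, and 2 macrophage markers were lower and none higher (unadjusted p below 0.05). The Ni libraries lay entirely below the controls for 3 of the 12 and entirely above for none. Lyz2 made up the largest part of the macrophage sum, at 9616 to 15097 CPM in the controls. Adgre1, next in mean CPM, was at 3729, 3781 and 2553 CPM in the controls. Control replicate 3 had the highest Lyz2, Mrc1, Fcgr1, Cd68 and Csf1r of the controls and the lowest Adgre1, Ptprc and Itgam. The neutrophil markers summed to at most 3.24 CPM, with S100a9 and Ltf at 0 in every library, and the lymphocyte and erythroid markers Cd3e, Hba-a1 and Hbb-bs were at 0 in every library. Endothelial markers summed to 43.7 to 72.2 CPM in the controls and 41.1 to 46.0 in the Ni libraries, and adipocyte markers to 82.6 to 101 and 91.1 to 110. The part of the cell makeup in the results below was not tested, and fewer cells of a type and less RNA per cell cannot be told apart in these bulk libraries.

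Per length, the genes spanned a wide range of levels. In FPKM (counts scaled to gene length and library size, the deposited unit in which genes can be set side by side), Cd44 was highest, with a mean of 29.3 over the 6 libraries and a range of 23.5 to 34.7. Hyal2 followed at 12 (8.97 to 15.5), Has2 at 10.5 (6.66 to 13.9) and Vcan at 8.67 (5.12 to 11.7), and the ranges of neighbours in these 3 overlapped. Cemip at 3.13 (1.92 to 3.97) and Hyal1 at 3.00 (1.95 to 3.69) also overlapped, below Vcan. Tnfaip6 had 1.04 FPKM (0.599 to 1.46), and Has3 and Has1, at 0.0933 and 0.0774, overlapped each other at the bottom. Among the tested genes Cd44 stood at percentile 88.0 of mean FPKM, Hyal2 at 72.0, Has2 at 68.6, Vcan at 64.1, Cemip at 39.0, Hyal1 at 37.9, Tnfaip6 at 19.3 and Has3 at 0.568.

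**Figure D1:**
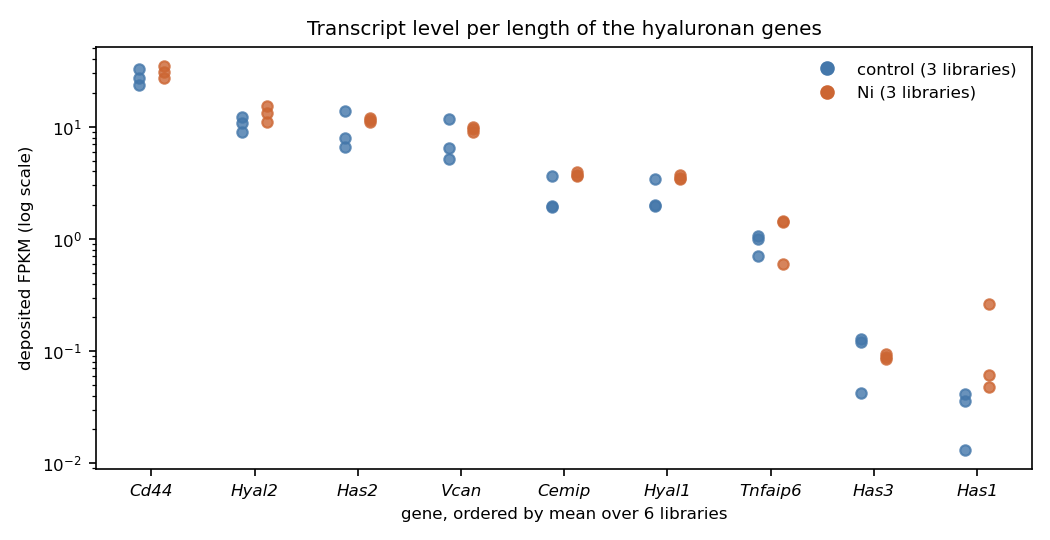
Deposited FPKM of the 9 hyaluronan genes on a log axis, ordered by their mean over 6 libraries, with each point 1 library (blue for 3 controls, orange for 3 Ni). Cd44 lies highest at a mean of 29.3 FPKM and Has3 and Has1 lie lowest, at means of 0.0933 and 0.0774 FPKM.

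Among the synthases, Has2 made up nearly all of the transcript. HAS2 is the isoform needed for development of the mouse embryo. Of the summed FPKM of Has1, Has2 and Has3, Has2 took 97.0% to 99.0% in the 6 libraries, with a mean of 98.5% ± 0.869 in the controls and 98.2% ± 1.03 in the Ni libraries (SD, n = 3 each), a difference smaller than the spread. The gene lies at chr15:56665627-56694539 on the minus strand (GRCm38), and 4.295% of its exon bases are also exons of the antisense gene Has2os on the other strand. Has2 was at 33.8, 28.4 and 59.3 CPM in the controls and 50.9, 48.9 and 46.6 CPM in the Ni libraries. Control replicate 3 was the highest of all 6 libraries and the other controls the lowest, so the groups overlapped. The mean was 40.5 ± 16.5 CPM in the controls and 48.8 ± 2.12 CPM in the Ni libraries (SD, n = 3 each), a 1.21-fold difference with a 95% confidence interval of 0.813 to 1.79. The log2 fold change was 0.27 (SE 0.25) and the adjusted p was 0.673 in the quasi-likelihood F test of edgeR, Benjamini-Hochberg adjusted, while the exact two-sided permutation test over the 6 libraries gave p = 0.4, where 0.1 is the smallest it can give. Without control replicate 3 the log2 fold change was 0.65 (SE 0.11) with an adjusted p of 0.00217 in the same edgeR test. Has2os itself had 2 to 20 reads per library, against 451 to 988 reads of Has2.

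Has1 and Has3 were near the detection limit. Has1 (chr17:17843323-17855205, minus strand) had 3, 3 and 1 reads in the controls and 4, 21 and 5 in the Ni libraries. Most of its reads in the Ni group came from replicate 2, and although the groups did not overlap, the counts of the other 2 Ni libraries were within a few reads of the controls. The exact two-sided permutation test gave p = 0.1, the smallest possible, and no fold change is given at this depth. Has3 (chr8:106870242-106884566, plus strand) had 5, 13 and 13 reads in the controls and 10, 10 and 11 in the Ni libraries. Its groups overlapped, with control replicate 1 lowest, and the 0.933-fold difference had a 95% confidence interval of 0.418 to 2.08 (adjusted p = 0.955, edgeR quasi-likelihood F test, Benjamini-Hochberg adjusted). The sign of the Has3 difference depended on single libraries, being positive at a log2 fold change of 0.14 without control replicate 2 and 0.11 without control replicate 3. In addition, 5.517% of the exon bases of Has3 are shared with Chtf8 on the opposite strand, which had 1595 to 1894 reads per library, and whether the authors counted by strand is not stated, so that the few Has3 reads are uncertain.

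Cd44, the receptor, lies at chr2:102811141-102901665 on the minus strand. It was at 186, 160 and 223 CPM in the controls and 210, 186 and 236 CPM in the Ni libraries. The groups overlapped, with control replicate 3 between the higher 2 Ni libraries. The means were 190 ± 31.7 and 210 ± 25.2 CPM (SD, n = 3 each), a 1.11-fold difference with a 95% confidence interval of 0.896 to 1.37, and the adjusted p was 0.673 (edgeR quasi-likelihood F test, Benjamini-Hochberg adjusted), with an exact two-sided permutation p of 0.4. Without control replicate 3 its log2 fold change was 0.29 (SE 0.11), with an adjusted p of 0.112 in the same edgeR test. In Cd44, control replicate 3 exceeded the mean of the other controls by 1.29-fold.

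Vcan, whose product ties hyaluronan into large aggregates, lies at chr13:89655312-89742509 on the minus strand. It was at 94.3, 74.5 and 171 CPM in the controls and 131, 141 and 146 CPM in the Ni libraries. Control replicate 3 was again the highest library, above all 3 Ni libraries, and the other controls the lowest. The means were 113 ± 51.1 and 139 ± 7.91 CPM (SD, n = 3 each). The 1.23-fold difference had a 95% confidence interval of 0.779 to 1.94 and an adjusted p of 0.687 (edgeR quasi-likelihood F test, Benjamini-Hochberg adjusted), and the exact two-sided permutation p was 0.4. Without control replicate 3 the log2 fold change moved from 0.30 (SE 0.28) to 0.73 (SE 0.11), with an adjusted p of 0.000958 in the same edgeR test. Control replicate 3 exceeded the mean of the other controls by 2.04-fold for Vcan and 1.91-fold for Has2.

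Tnfaip6 (chr2:52038009-52056686, plus strand), which is known to be induced by inflammatory signals, had 22, 29 and 29 reads in the controls and 46, 18 and 44 in the Ni libraries. Ni replicate 2 was the lowest of all 6 libraries and the other 2 Ni libraries the highest. The difference was 1.26-fold with a 95% confidence interval of 0.686 to 2.31, and the adjusted p was 0.753 (edgeR quasi-likelihood F test, Benjamini-Hochberg adjusted). The exact two-sided permutation p was 0.6, and the interval at this depth held differences of either sign. For Tnfaip6 without control replicate 3, the log2 fold change was 0.41 (SE 0.44) with an adjusted p of 0.612 in the same edgeR test.

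Of the genes of breakdown, Cemip lies at chr7:83932857-84086502 on the minus strand. It was at 24.3, 23.7 and 44.8 CPM in the controls and 44.2, 45.8 and 48.7 CPM in the Ni libraries. Control replicate 3 exceeded the lowest Ni library by less than 1 CPM, and it alone made the groups overlap. The means were 30.9 ± 12 CPM in the controls and 46.2 ± 2.28 CPM in the Ni libraries (SD, n = 3 each), a 1.50-fold difference with a 95% confidence interval of 1.03 to 2.17. The log2 fold change was 0.58 (SE 0.23), with p = 0.036 before and 0.351 after adjustment (edgeR quasi-likelihood F test, Benjamini-Hochberg adjusted), and the exact two-sided permutation p was 0.2. Without control replicate 3 the log2 fold change was 0.95 (SE 0.11) and the adjusted p was 0.000202 in the same edgeR test. With no filter on low counts it passed as well, at a log2 fold change of 0.59 and an adjusted p of 0.000585 in the same edgeR test, where 2.55% of 25876 genes passed with a higher value.

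Hyal1, the lysosomal hyaluronidase, lies at chr9:107576927-107581710 on the plus strand. It was at 7.43, 7.62 and 12.96 CPM in the controls and 12.92, 14.1 and 13.4 CPM in the Ni libraries. The groups overlapped only because control replicate 3 exceeded Ni replicate 1 by a margin smaller than 0.1 CPM, and on the FPKM scale, with its different scaling, all 3 Ni libraries lay above the controls. The means were 9.34 ± 3.14 and 13.5 ± 0.597 CPM (SD, n = 3 each), a 1.44-fold difference with a 95% confidence interval of 1.04 to 2.01. The log2 fold change was 0.53 (SE 0.21), with p = 0.0334 before and 0.350 after adjustment (edgeR quasi-likelihood F test, Benjamini-Hochberg adjusted) and an exact two-sided permutation p of 0.2. Without control replicate 3 these were 0.84 (SE 0.16) and an adjusted p of 0.0038. In all, 51.92% of the exon bases of Hyal1, or 1961 of 3777, are also exons of Hyal3 and Naa80 on the same strand, so reads there cannot be assigned to 1 gene by position and the Hyal1 values are uncertain. Naa80, an actin acetyltransferase gene listed under its older symbol, had 306 to 584 reads per library, with a log2 fold change of 0.35 (SE 0.16, adjusted p = 0.371 in the edgeR test), and Hyal3 had 4 to 17 reads.

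Hyal2 (chr9:107567945-107572779, plus strand), the hyaluronidase of the cell surface and the more abundant of the pair per length, was at 29.7, 36.2 and 40.3 CPM in the controls and 44.2, 51.5 and 36.2 CPM in the Ni libraries. The overlap came from Ni replicate 3, which was level with control replicate 2 and below control replicate 3. The means were 35.4 ± 5.33 and 43.9 ± 7.64 CPM (SD, n = 3 each), a 1.24-fold difference with a 95% confidence interval of 0.981 to 1.57. The adjusted p was 0.401 (edgeR quasi-likelihood F test, Benjamini-Hochberg adjusted) and the exact two-sided permutation p 0.2, and without control replicate 3 the log2 fold change of 0.42 (SE 0.15) had an adjusted p of 0.0848 in the same edgeR test.

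**Figure D2:**
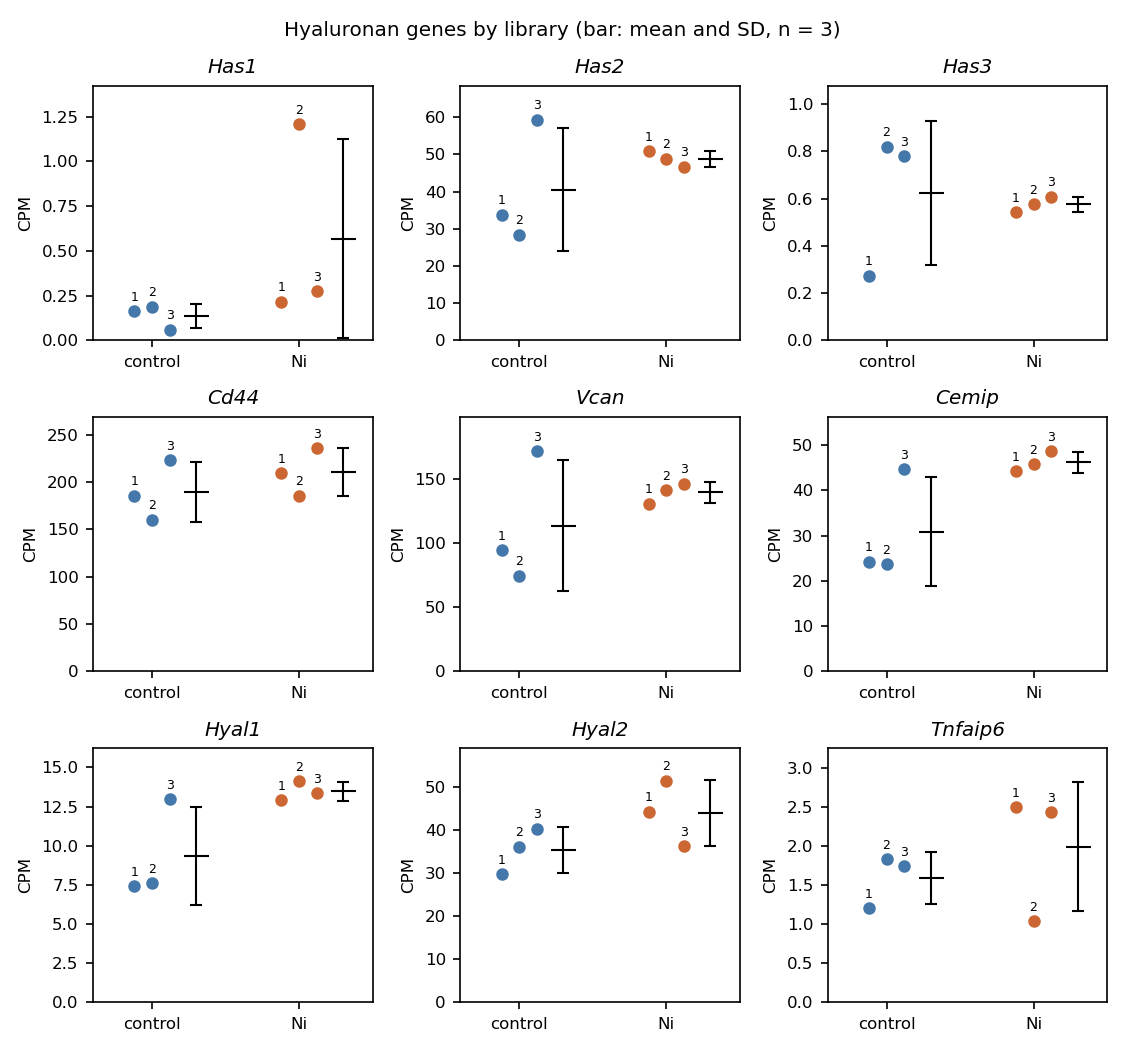
CPM (linear axes from 0) of the 9 hyaluronan genes, with each numbered point 1 library by replicate and each bar the mean and SD of 3 libraries. In Has2, Vcan, Cemip and Hyal1 control replicate 3 lies with or above the Ni libraries and the other controls lie below, while Has1, Has3 and Tnfaip6 rest on few reads.

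**Figure D3:**
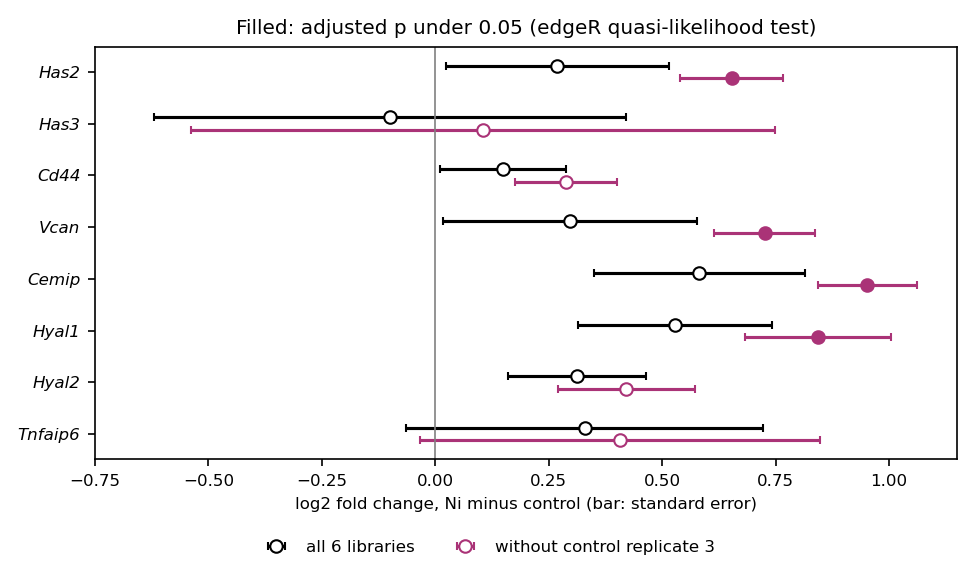
Log2 fold change (Ni minus control) of the 8 tested genes with its standard error, from all 6 libraries (black) and without control replicate 3 (purple), filled where the adjusted p was under 0.05. No gene is filled with all libraries, and Has2, Vcan, Cemip and Hyal1 are filled without that library, at 0.65, 0.73, 0.95 and 0.84.

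For the balance of synthesis and breakdown transcripts, the difference between the groups was smaller than the spread within them. The summed FPKM of the synthases was 9.60 ± 3.84 in the controls and 11.7 ± 0.503 in the Ni libraries, and that of Hyal1 and Hyal2 was 13.1 ± 2.31 and 16.8 ± 2.34 (SD, n = 3 each). Their ratio was 0.732, 0.529 and 0.901 in the controls and 0.721, 0.614 and 0.768 in the Ni libraries. All 3 Ni ratios lay inside the range of the controls, with means of 0.721 ± 0.186 and 0.701 ± 0.0789. The sign of the difference, Ni minus control, depended on single libraries, being -0.0197 with all 6, 0.0706 without control replicate 3, 0.0238 without Ni replicate 2 and -0.116 without control replicate 2. With Cemip added to the hyaluronidases the ratios were 0.604 ± 0.136 and 0.570 ± 0.0484. Hyal1 contributed 15.5% to 24.4% of the FPKM of the hyaluronidase pair, with 18.4% ± 3.22 in the controls and 21.3% ± 2.69 in the Ni libraries. Since 51.92% of the exon bases of Hyal1 are also exons of Hyal3 and Naa80, these shares, sums and ratios carry the uncertainty of its values.

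The profiles over the 6 libraries fell closest in 2 pairs. Likeness was measured as the root mean square difference of centred log2 CPM over the 6 libraries, where 0 means the same profile. Cemip and Hyal1 differed by 0.0760 and Has2 and Vcan by 0.0956, with the next closest pair, Has2 and Hyal1, at 0.162. The first pair was level between control replicate 3 and the Ni libraries, and the second was highest in control replicate 3. Among 9473 genes with a mean of at least 10 CPM, the nearest to Has2 were Jaml (0.0455), Mrc1 (0.0653) and Clec4n (0.0717). The median over all 9473 was 0.389 for Has2, 0.431 for Vcan, 0.464 for Cemip and 0.411 for Hyal1. It was smaller for Cd44, at 0.236, and for Hyal2, at 0.289. The nearest to Vcan were Clec4n (0.0687), Hal (0.0799) and Armcx4 (0.0936). Mrc1 is also one of the 12 macrophage markers, with the highest log2 fold change of that list, 0.24, where 8 of the 12 were negative and the median was -0.15. Among the nearest to Cemip were Tmeff1 (0.0398) and Anxa8 (0.0461), and the nearest to Hyal1 were Ccdc9b (0.0315), Vegfa (0.0444) and Fosl2 (0.0470). The nearest to Cd44 were Lilrb4a (0.0246), Rint1 (0.0301) and Aktip (0.0321), and to Hyal2 Thra (0.0488), Hes6 (0.0513) and Cltb (0.0549). All these genes share the same 6 libraries, so the values describe the libraries and carry no test.

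The sequences before the start sites of Cemip and Hyal1, the closest pair, and of Vcan, for which control replicate 3 was farthest from the other controls, are shown to let their promoters be set beside the profiles. RefSeq (GRCm38.p6) gave a promoter for 7 of the 9 genes, and Has2 and Has3 were not among them. The sequences are printed in the direction of transcription, up to the base before the RefSeq start. For Hyal1 the print stops earlier, at the base before the deposited gene start, which lies upstream of the RefSeq start. Capitals mark matches on either strand to TATAAA (a core promoter element), GGGCGG (GC box), ACCACA (the core bound by Runx factors), TGANTCA (AP-1), ACGTG (hypoxia response core) and CCAAT (bound by NF-Y). Cemip is chr7:84086506-84086755 on the minus strand, Hyal1 is chr9:107576700-107576926 on the plus strand and Vcan is chr13:89742513-89742762 on the minus strand.
Cemip: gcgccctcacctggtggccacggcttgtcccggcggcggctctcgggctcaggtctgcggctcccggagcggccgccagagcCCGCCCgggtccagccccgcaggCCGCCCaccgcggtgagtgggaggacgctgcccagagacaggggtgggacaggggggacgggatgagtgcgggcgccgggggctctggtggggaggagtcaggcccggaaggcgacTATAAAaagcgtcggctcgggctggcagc
Hyal1: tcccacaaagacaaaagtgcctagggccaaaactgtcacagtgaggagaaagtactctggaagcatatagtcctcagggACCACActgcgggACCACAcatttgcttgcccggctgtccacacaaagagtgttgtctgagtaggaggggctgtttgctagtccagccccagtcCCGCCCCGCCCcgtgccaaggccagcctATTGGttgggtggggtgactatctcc
Vcan: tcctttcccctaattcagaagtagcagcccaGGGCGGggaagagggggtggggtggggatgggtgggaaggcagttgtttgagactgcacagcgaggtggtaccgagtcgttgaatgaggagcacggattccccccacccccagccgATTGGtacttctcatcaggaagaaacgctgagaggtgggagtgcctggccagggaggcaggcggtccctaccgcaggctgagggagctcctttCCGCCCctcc

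The 3 promoters differed in composition and motifs. The Cemip window of 250 bases had a GC content of 75.2%, a TATAAA 29 bases before the RefSeq start and 2 GC boxes on the opposite strand. The Hyal1 window of 227 bases had a GC content of 56.8%. It held 2 ACCACA matches at 171 and 158 bases before the RefSeq start, which lies beyond the printed sequence. It also held 2 overlapping GC boxes and a CCAAT, these 3 on the opposite strand. The Vcan window of 250 bases had a GC content of 62.4%, a GC box on each strand and a CCAAT on the opposite strand. Of 32851 RefSeq promoters in windows of 250 bases, 12.4% held a TATAAA, 33.8% a CCAAT, 32.7% a GC box, 14% an ACCACA, 6.75% an AP-1 match and 16.6% an ACGTG on either strand. No motif other than the GC box was found in all 3 windows, and a match shows letters only, not a bound factor.

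The wider pathway was read from 7 lists with 60 gene names, of which 59 were in the table and 43 were tested. None of the 43 passed an adjusted p of 0.05 (edgeR quasi-likelihood F test, Benjamini-Hochberg adjusted). Of the 43, 10 had a higher and 3 a lower mean with an unadjusted p below 0.05, against 7.59% and 5.83% of all tested genes, and the Ni libraries lay entirely above the controls for 5 and entirely below for 4 of the 43, against 7.97% and 6.71%. The median log2 fold change was 0.03.

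Of 11 genes for the UDP-sugar precursors, 10 were tested, with a median log2 fold change of 0.08, and 3 had an unadjusted p under 0.05, all higher. Ugdh, the enzyme that makes UDP-glucuronic acid, was at 112, 110 and 134 CPM in the controls and 159, 131 and 166 in the Ni libraries. Control replicate 3 and Ni replicate 2 overlapped, and the log2 fold change was 0.36 (SE 0.12, adjusted p = 0.311 in the edgeR test). Pgm3, which acts on N-acetylglucosamine phosphate, was at 19.3, 19.3 and 19.98 CPM in the controls and 24.9, 22.1 and 24.2 in the Ni libraries, and here control replicate 3 stayed with the other controls and the groups did not overlap. Its log2 fold change was 0.28 (SE 0.11, adjusted p = 0.339 in the edgeR test), and 28.3% of its exon bases lie opposite exons of Dop1a. Pgm2, a phosphoglucomutase, had a log2 fold change of 0.31 (SE 0.13). The highest of the list per length were Gpi1, at 86.3 FPKM and a log2 fold change of -0.01, and Ugp2, at 37.1 FPKM and 0.03. The list's other gene, Gnpnat1, had 0 to 4 reads per library and was left out by the filter. Of its exon bases 81.9% lie opposite exons of Styx, and the strand setting of the counts is not stated, so its level is uncertain.

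All 5 other hyaluronan receptors were tested and none had an unadjusted p under 0.05, with a median log2 fold change of 0.47. Stab1, a scavenger receptor of macrophages and sinusoidal endothelium, was the highest at 299.5 FPKM, with a log2 fold change of 0.02 (SE 0.15). Lyve1, known from lymphatic endothelium and some macrophages, was at 13.99, 12.4 and 46.2 CPM in the controls and 27.4, 56.9 and 27.4 in the Ni libraries. Control replicate 3 and Ni replicate 2 were far above the other 4 libraries, and the log2 fold change of 0.62 had an SE of 0.61. Layn and Hmmr had log2 fold changes of 0.47 (SE 0.24) and 0.59 (SE 0.33), and Stab2 of -0.45 (SE 0.39).

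Of 16 genes for link proteins, lecticans, heavy chains and other binders, 7 were tested and 4 had an unadjusted p under 0.05, all higher, with a median log2 fold change of 0.52. Hapln1, a link protein that fastens lecticans to hyaluronan, had 11, 13 and 14 reads in the controls and 61, 25 and 66 in the Ni libraries. The groups did not overlap and control replicate 3 lay with the other controls, with a log2 fold change of 1.89 (SE 0.42, adjusted p = 0.212 in the edgeR test). Bcan, the lectican brevican, had 31, 23 and 36 reads against 87, 59 and 110, with no overlap and a log2 fold change of 1.42 (SE 0.30, adjusted p = 0.208 in the edgeR test). Hapln4 had 8, 8 and 34 reads against 91, 31 and 73, with an overlap from control replicate 3 and a log2 fold change of 1.85 (SE 0.60). All 3 were rare transcripts, at 0.299 FPKM for Hapln1, 0.795 for Bcan and 0.580 for Hapln4. Ptx3, a pentraxin that works with TSG-6 in cross-linking hyaluronan, was the highest of the list at 92.1 FPKM and stood at 155, 168 and 289 CPM in the controls and 311, 277 and 292 in the Ni libraries. Its control replicate 3 lay among the Ni libraries, and its log2 fold change was 0.52 (SE 0.22, adjusted p = 0.364 in the edgeR test). Habp4, next per length at 4.60 FPKM, had 0.24 (SE 0.13). Acan, Ncan and the heavy chain genes Itih1, Itih3 and Itih4 were left out by the filter on low counts, while Itih5 was lower in all 3 Ni libraries, at -0.25 (SE 0.13).

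Of 10 names listed for other genes of breakdown, 9 were in the table and 5 were tested, with a median log2 fold change of -0.10 and none at an unadjusted p under 0.05. The name not found, Cemip2, is another symbol of Tmem2, which was in the table. Hexa, which encodes a lysosomal exoglycosidase subunit, was the highest at 352 FPKM, with a log2 fold change of -0.13 (SE 0.11). Gusb, the lysosomal glucuronidase, was lower in all 3 Ni libraries than in any control, at a log2 fold change of -0.18 (SE 0.10, adjusted p = 0.438 in the edgeR test). Tmem2, a cell surface hyaluronidase related to Cemip, was at 0.08 (SE 0.12). The hyaluronidase family genes Hyal4, Hyal6 and Spam1 were at 0 in every library, and Hyal5 had 0 to 2 reads.

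Of 7 genes for proteases that cut versican, 5 were tested. Adamts1, the highest at 12.8 FPKM, was at 55.3, 54.0 and 62.8 CPM in the controls and 90.9, 63.0 and 82.9 in the Ni libraries, with no overlap, though Ni replicate 2 was within 1 CPM of control replicate 3. Its log2 fold change was 0.46 (SE 0.14, adjusted p = 0.293 in the edgeR test). Adamts5, next at 7.13 FPKM, was at 89.0, 84.6 and 79.9 CPM in the controls and 70.9, 76.0 and 64.8 in the Ni libraries. It differed in the other direction, again with no overlap, at -0.26 (SE 0.10, adjusted p = 0.334 in the edgeR test). The list's median was -0.06.

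All 10 genes for CD44 ligands, linkers and sheddases were tested, with a median log2 fold change of 0.01, and 2 were higher and 2 lower (unadjusted p below 0.05). Spp1 (osteopontin, a bone matrix protein that CD44 can bind) was by far the highest at 4606 FPKM. It was at 4699, 4264 and 9015 CPM in the controls and 9999, 7997 and 9873 in the Ni libraries, with control replicate 3 among the Ni libraries and a log2 fold change of 0.63 (SE 0.27, adjusted p = 0.367 in the edgeR test). Of the proteases that can shed or cut CD44, Mmp14 was higher, at 0.43 (SE 0.16), and Adam17 lower, at -0.28 (SE 0.10), both with groups that did not overlap and adjusted p-values of 0.334 and 0.309 in the edgeR test. Mmp9, whose product can dock on CD44, was at 53.2, 75.7 and 86.5 CPM in the controls and 36.8, 59.5 and 25.1 in the Ni libraries. These overlapped, and the log2 fold change was -0.83 (SE 0.32, adjusted p = 0.350 in the edgeR test). The membrane linker gene Msn, next per length at 192 FPKM, had -0.06 (SE 0.11).

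**Figure D4:**
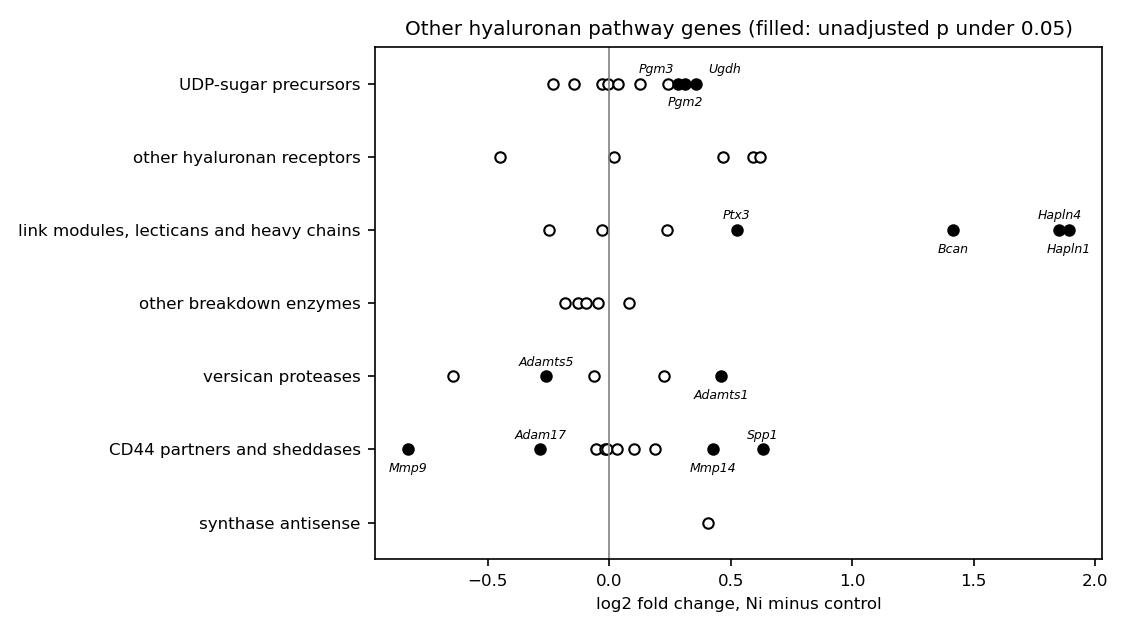
Log2 fold change (Ni minus control) of 43 tested pathway genes, with each point 1 gene in the row of its list, filled and named where the unadjusted p was under 0.05. The 13 named points include Hapln1, Hapln4 and Bcan at the far right, from 1.42 to 1.89, and no receptor or other breakdown enzyme is filled.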

How the data were processed

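RNA of 3 control and 3 Ni libraries was sequenced, and the authors deposited whole-number read counts of 54532 genes without normalization, and FPKM values of the same genes. The deposited FPKM could be rebuilt from the counts, the gene length and 1 scaling factor per library to within 3.29e-07 of their value. The build is GRCm38 per the labels. The aligner, the counter and the strand setting are not given in the sources used here.

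Genes were kept by filterByExpr (14624), scaled by TMM and tested in edgeR 4.0.16 (glmQLFit and glmQLFTest, robust, prior count 0.125, R 4.3.3) with Benjamini-Hochberg adjustment at 0.05, after a test on simulated data. No design for these libraries is stated, so groups were fitted without covariates. DESeq2 1.42.0, limma 3.58.1 on log2(FPKM + 1) and log2(FPKM + 0.1), other scalings and filters, a replicate block and each library left out were alternatives. Standard errors were derived as the absolute edgeR log2 coefficient, without the prior count, divided by the square root of its F statistic. Confidence intervals are centred on that coefficient, while the fold changes include the prior count. Overlaps used GENCODE M21 exons, and centred log2 CPM a prior count of 2. Counts of libraries within a group differed by more than sampling noise (chi-square over degrees of freedom, 3.65 to 31.5).

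The members and lists were chosen with earlier results of these data known. Named beside the 9 genes were the list genes with an unadjusted p under 0.05, the 2 per list highest in FPKM, and the 3 nearest profiles, of which some are not reported here. Layn, Hmmr, Stab2, Itih5, Gusb, Tmem2, Naa80 and untested list genes were named after their values were seen. Tnfaip6, Has1 and Has3, under 10 CPM on average, were given no nearest profiles.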

Additional observations from a re-analysis of the deposited data

How the results depend on the processing

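Of 8 tested genes, 7 kept a positive log2 fold change in every alternative. The number of genes at an adjusted p under 0.05 was 0 in edgeR, 257 in DESeq2, 1027 with no filter on low counts and 0 to 2283 with 1 library left out, where the highest was without control replicate 3 and the only other above 0 was 13 without Ni replicate 2. At an unadjusted p below 0.05 it was 1963, with 3057 under no filter and 868 to 4125 with 1 library left out. A replicate block gave 315 genes at the adjusted level, or 256 with a gene-length trend removed as well. No hyaluronan gene passed under either. With the block alone Cemip had a log2 fold change of 0.64 (SE 0.16, adjusted p = 0.092 in the edgeR test). Same-numbered libraries correlated at 0.01, 0.26 and 0.14, and 4 of 6 libraries correlated best with their own number. The labels give only a replicate number, and these correlations cannot decide whether same-numbered libraries were paired.

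With 1 library left out, log2 fold changes ranged from 0.070 to 0.65 for Has2, -0.47 to 0.14 for Has3, 0.04 to 0.29 for Cd44, 0.069 to 0.73 for Vcan, 0.42 to 0.95 for Cemip, 0.39 to 0.84 for Hyal1, 0.19 to 0.44 for Hyal2 and 0.13 to 0.64 for Tnfaip6. Has3 reversed without control replicate 2 (0.14) and without control replicate 3 (0.11). Has2, Vcan, Cemip and Hyal1 passed without control replicate 3, and Cemip with no filter (0.59). Of the 8 tested genes, 1, Hyal1, had groups that did not overlap on deposited FPKM, and 0 on CPM, while the untested Has1 did not overlap on either scale. On CPM the Ni libraries lay entirely above the controls for 7.97% of all tested genes and entirely below for 6.71%. That share was not counted on FPKM, so the 1 gene cannot be set against it. The cause of these differences between settings was not tested. Depth limits Has1, Has3 and Tnfaip6, at 1 to 46 reads per library.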
